A study of Homo sapiens with 4 samples.

Results

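To examine where m6A lies on the transcripts that make up an epithelial cell, the peaks of 10 genes were followed in the m6A maps of OE-19 cells. OE-19 is an established cell line from an adenocarcinoma of the gastric cardia, a tumor of the esophagogastric junction. The genes were 5 keratins (KRT7, KRT8, KRT18, KRT19 and KRT20), the adhesion genes EPCAM, CDH1 and CDH17, the brush border gene VIL1 and the tight junction gene TJP1. They were listed by name, and a peak was taken as theirs when its summit lay in the gene body. Of 24607 peaks in replicate 1 and 19318 in replicate 2, this gave 9 and 5 peaks. They are 10 of 20046 protein-coding genes in the annotation.

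The series held 4 samples of OE-19 cells grown in RPMI1640 medium with fetal bovine serum and antibiotics, with no drug or gene perturbation named. The labels describe the cells as UV-fixed before lysis. There were 2 replicates of RNA pulled down with an anti-m6A antibody and 2 replicates of input RNA, which was saved before the pull-down. A list of peaks was analysed for each pull-down but for neither input, so all values come from 2 libraries of 1 cell line and no test between groups was possible. The study calls the replicates biological, and whether they were separate cultures is not given in the sources used here. Peak lists hold neither read numbers nor expression levels, so depth is unknown, and the epithelial character of the cells could not be checked from them. A gene without a peak may carry no m6A, may be too little expressed or may be enriched too weakly to be called, and these cannot be told apart here.

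N6-methyladenosine (m6A) is a methyl mark that a METTL3-containing complex places on adenosines of mRNA, mostly in a GGAC-like context, and that reader proteins recognize to change the fate of the transcript. It is known to be dense near stop codons and in long exons, and sparse close to the exon junctions of short exons. Keratins are the intermediate filament proteins of epithelia, and KRT8 pairs with KRT18 in simple epithelia such as the lining of the gut. E-cadherin, the product of CDH1, joins neighbouring epithelial cells, and its tail inside the cell binds catenins.

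The following sites are shown because, of the GGAC motifs of the spliced mRNA, they are the closest to the summits of the shared peaks of CDH1 and TJP1 that hold GGAC and of the exon 4 peak of VIL1. The sites of the CDH1 peaks found in replicate 1 alone are not shown. Capitals mark the motif, and the sequence is that of the gene's strand in hg38. The adenine of the motif is a candidate for methylation, but the peaks do not resolve a single site. The peaks of CDH1 exon 16 and TJP1 exon 19 hold further GGAC motifs.
CDH1 exon 16, chr16:68833409-68833437, plus strand: agacaaagaccaGGACtatgactacttga
TJP1 exon 19, chr15:29720505-29720533, minus strand: atgatgaggttgGGACtccaccggagtct
TJP1 exon 21, chr15:29718925-29718953, minus strand: ctcaagctatacGGACcagttttctcgaa
VIL1 exon 4, chr2:218425656-218425684, plus strand: ctggattggccaGGACtcatccctggatg

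The next sites were chosen by another rule, so they are no matched contrast to the first. They are the GGAC motifs closest to the stop codon in 5 of the 7 mRNAs that had no peak in either list. KRT20 and CDH17 are not shown. The closest motif of KRT20 was 812 nt from the stop codon and 13 nt from an exon junction. That of CDH17 was at −488 nt. The sites shown were 33 to 153 nt from the stop codon. They were 18 nt from the nearest exon junction in KRT18, 86 nt in EPCAM and 135 to 342 nt in the others.
KRT7, chr12:52248711-52248739, plus strand: cttattccatccGGACcgcatccgccagt
KRT8, chr12:52897263-52897291, minus strand: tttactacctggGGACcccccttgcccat
KRT18, chr12:52952725-52952753, plus strand: tggtgatgccttGGACagcagcaactcca
KRT19, chr17:41523774-41523802, minus strand: agcctgctcgagGGACaggaagatcacta
EPCAM, chr2:47386643-47386671, plus strand: gaaatagcaaatGGACacaaattacaaat

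Only CDH1 and TJP1 had an exonic peak in both replicates, and VIL1 had peaks in replicate 1 alone. All 5 keratins, EPCAM and CDH17 had no peak in either list, neither in an exon nor in an intron. The count was 3 of 10 genes in replicate 1, 2 of 10 in replicate 2 and 2 of 10 in both. Over all protein-coding genes, the portion with an exonic peak was 42.4% in replicate 1, 34.1% in replicate 2 and 33.4% in both. With genes this few, the members are a description of 10 transcripts and say nothing of epithelial genes at large.

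**Figure D1:**
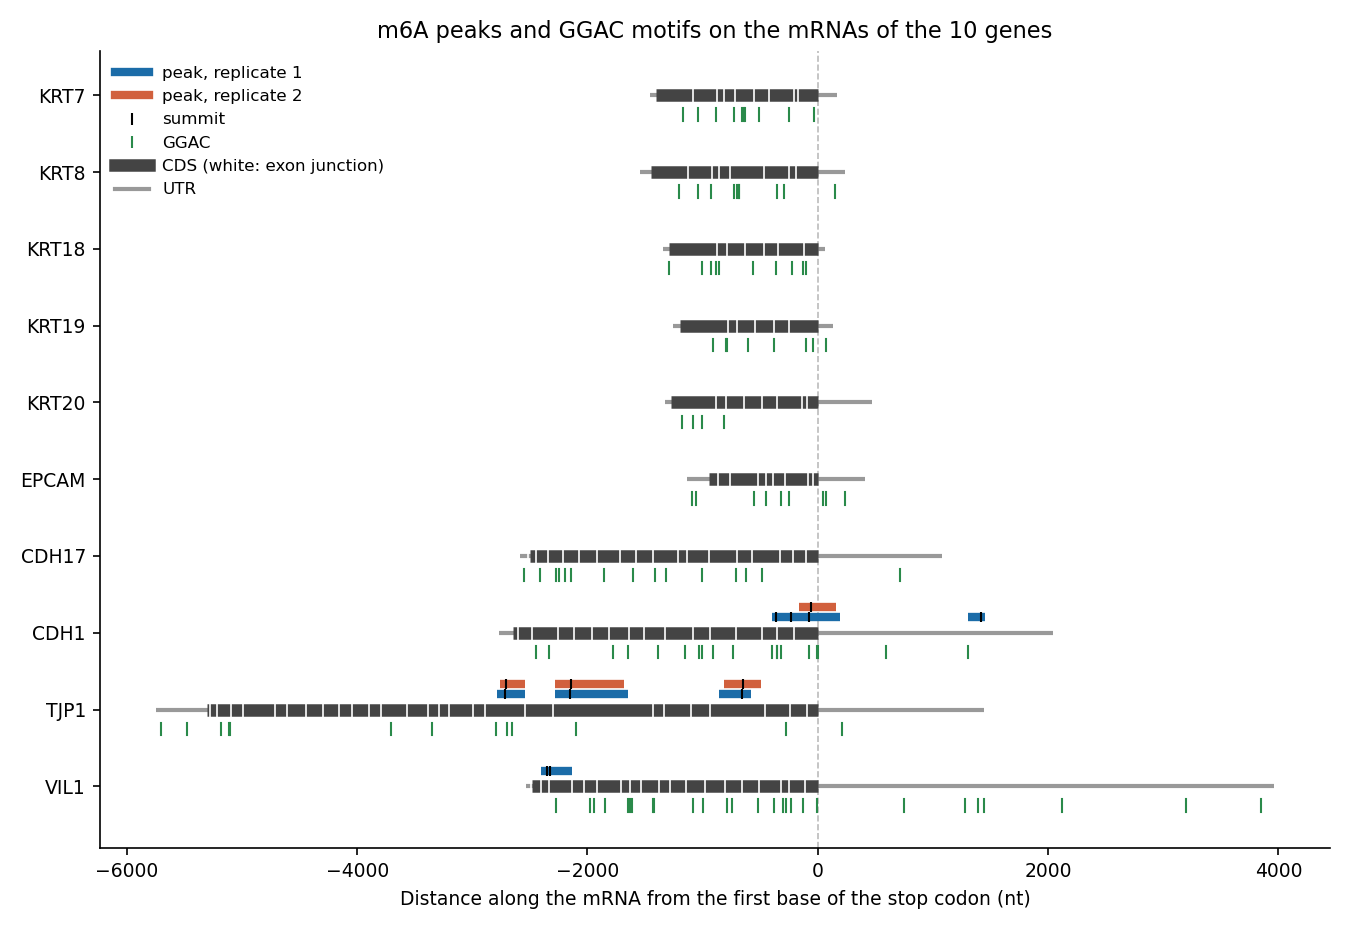
Spliced mRNAs of the 10 genes, drawn to scale with the stop codon's first base at 0 (nt), with CDS, exon junctions, GGAC motifs and the exonic peaks of each replicate. Peaks stand on CDH1, TJP1 and VIL1 alone, while GGAC motifs stand on all 10 mRNAs, from 4 on KRT20 to 27 on VIL1.

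Firstly, CDH1 was examined, which encodes the main adhesion molecule of adherens junctions. On chromosome 16, CDH1 (ENSG00000039068.20) spans 68737292 to 68835537 of the plus strand, and its reference transcript ENST00000261769.10 has 16 exons and 4811 nt. Its strongest peak ran from 68833262 to 68833694 in replicate 1 and from 68833334 to 68833655 in replicate 2. The fold enrichment, the signal at the summit over the local background of the peak caller, was 4.47 in replicate 1 and 3.85 in replicate 2. The summits were 19 bp apart, in CDS of exon 16 at 77 nt and 58 nt upstream of the stop codon. The adenine of the GGAC site printed above lay 74 nt upstream of the stop codon, 3 nt from the summit of replicate 1 and 16 nt from that of replicate 2. The mRNA around this site encodes the end of the cytoplasmic tail of E-cadherin. In exon 16, which is the last exon and 2248 nt long, the site was 134 nt from the nearest exon junction.

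Replicate 1 had 3 further CDH1 peaks that replicate 2 lacked. A peak from 68828256 to 68828401 had its summit in exon 14, 9 nt before the end of the exon, with a fold enrichment of 3.69 and a −log10 q of 14.1. Of its 146 bp, 49 lay in the exon. A peak over the whole of exon 15, from 68829621 to 68829882, had a fold enrichment of 1.66 and a −log10 q of 1.34, just inside the limit of the list at a q of 0.05. On the spliced mRNA, these 2 peaks and the exon 16 peak joined into a stretch of 598 nt that ran from 400 nt upstream to 197 nt downstream of the stop codon's first base and held 7 GGAC motifs. In replicate 2 the corresponding stretch was 322 nt long and held 3. The fourth peak, from 68834800 to 68834949, was in the 3′ UTR 1418 nt after the stop codon, with a fold enrichment of 1.83 and no GGAC motif. GGAC was denser within the CDH1 peaks than in the rest of its mRNA, at 9.36 against 2.95 per kb in replicate 1 and 9.32 against 3.56 per kb in replicate 2. In TJP1 the values were 2.57 against 1.66 and 2.62 against 1.65 per kb, and in VIL1 they went the other way in replicate 1, at 3.68 against 4.17 per kb. These are descriptions of 3 transcripts.

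Next, TJP1 was examined, which encodes ZO-1, a scaffold that ties tight junction proteins to actin. On chromosome 15, TJP1 (ENSG00000104067.17) spans 29699367 to 29968915 of the minus strand, and transcript ENST00000614355.5 has 28 exons and 7190 nt. It carried 3 exonic peaks, and all 3 were found in both lists with summits 9 to 11 bp apart. All 3 were in CDS, and none was near the stop codon. The peak of exon 21, from 29718482 to 29719119 in replicate 1 and from 29718519 to 29719119 in replicate 2, was enriched 3.87-fold and 3.50-fold. Exon 21 is the longest internal exon of TJP1, with 873 nt, and the peak covered 638 nt of it in replicate 1 and 601 nt in replicate 2. Its only GGAC motif had the adenine 51 nt from the summit of replicate 1 and 40 nt from the summit of replicate 2.

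The peak of TJP1 exon 19 ran from 29720292 to 29720603 in replicate 1 and from 29720302 to 29720575 in replicate 2, and was enriched 2.61-fold and 2.35-fold. It held 2 GGAC motifs. The adenine of the GGACT site printed above was 16 nt from the summit of replicate 1 and 7 nt from that of replicate 2. The peak of exon 25 ran from 29708683 to 29708964 in replicate 1 and from 29708594 to 29708921 in replicate 2, and held no GGAC on the strand of the gene. It was enriched 2.20-fold in replicate 1 and 3.54-fold in replicate 2. It was the only shared peak of these genes with the higher value in replicate 2. Exons 19, 21 and 25 were 351, 873 and 478 nt long. Exons 19 and 21 were part of 6 of 8 coding transcripts of TJP1, and exon 25 of 7 of 8.

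VIL1, the gene of villin, which bundles actin in the microvilli of the brush border, had 2 exonic peaks in replicate 1 and none in replicate 2. On chromosome 2, VIL1 (ENSG00000127831.11) spans 218419121 to 218453295 of the plus strand. The peaks were near the start of the CDS, in exon 3 (218424224 to 218424408) and in exon 4 (218425530 to 218425860). The fold enrichment was 2.61 in exon 3 and 3.15 in exon 4, with a −log10 q of 1.84 and 8.08. On the spliced mRNA the peaks joined into a stretch of 272 nt made of the whole of both exons, 75 and 197 nt long. The GGACT site printed above was in exon 4, 48 nt from the summit, and another GGAC of the peak, 22 nt upstream of the summit, was in the intron before it. The last exon of VIL1, 4073 nt long with the whole 3′ UTR, had no peak.

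The strength of these peaks was then set against the lists. The median fold enrichment of exonic peaks was 5.30 in replicate 1, with quartiles of 3.71 and 7.71, and 4.82 in replicate 2, with quartiles of 3.42 and 6.68. All 13 exonic peaks of the members were below the median of their own list, from 1.66 to 4.47. The exon 16 peak of CDH1 was at percentile 36.9 of fold enrichment in replicate 1 and 33.1 in replicate 2. By q the same peak stood higher, with a −log10 q of 39.3 and 35.97, at percentiles 87.6 and 85.1. The exon 21 peak of TJP1 showed the same order, at percentiles 27.6 and 26.7 of fold enrichment and 75.7 and 74.2 of −log10 q. When a fold enrichment of 5 or more was required, 0 of 10 members kept an exonic peak in either replicate.

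**Figure D2:**
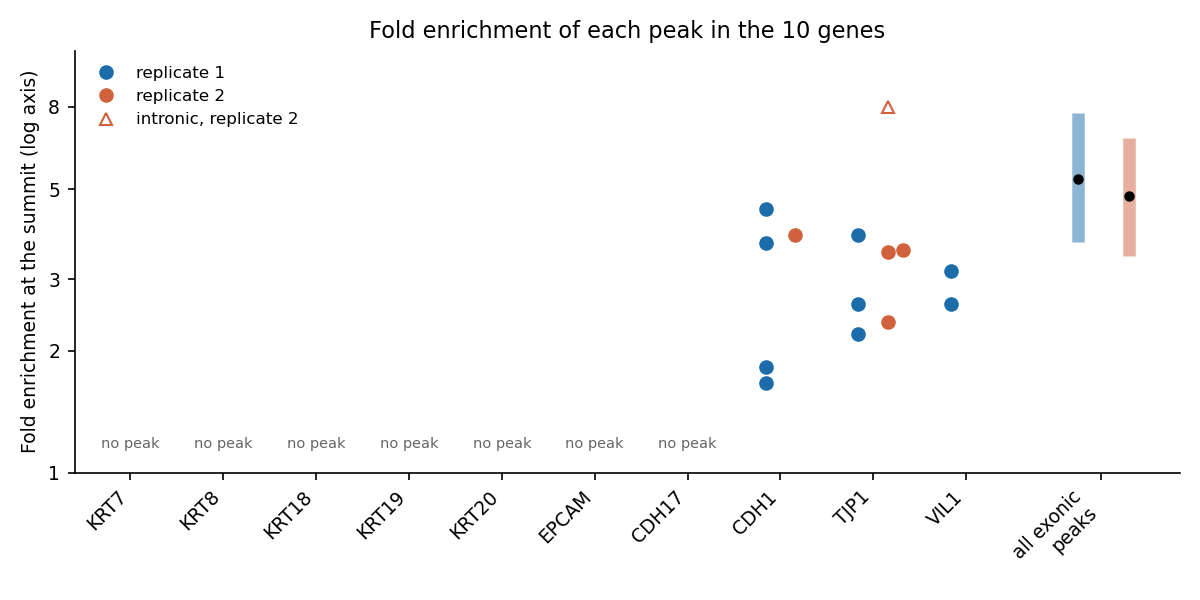
Fold enrichment at the summit (log axis) of each peak in the 10 genes, with replicate 1 in blue and replicate 2 in orange, circles for exonic peaks and a triangle for the intronic peak. The bars at the right span the quartiles of all exonic peaks and the points their medians, 5.30 and 4.82, and all 13 exonic peaks of the members are below the median of their list.

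The overlap between the lists was then counted. With an overlap of at least 1 bp, 4 of 9 exonic peaks of replicate 1 overlapped a peak of replicate 2, and 4 of 4 exonic peaks of replicate 2 overlapped a peak of replicate 1. Over all exonic peaks, the shared portion was 60.2% in replicate 1 and 95.0% in replicate 2. The 5 unshared exonic peaks were 3 of CDH1 and 2 of VIL1, and their fold enrichment was 1.66 to 3.69. For the 4 pairs, the log2 ratio of fold enrichment, replicate 1 over replicate 2, was 0.21 for CDH1 exon 16, 0.14 for TJP1 exon 21, 0.15 for TJP1 exon 19 and −0.69 for TJP1 exon 25. Over 11741 pairs of exonic peaks the median was 0.43 (quartiles 0.09 and 0.77), and the exon 25 pair was at percentile 2.71. With 1 library on each side, this difference has no replicate check.

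**Figure D3:**
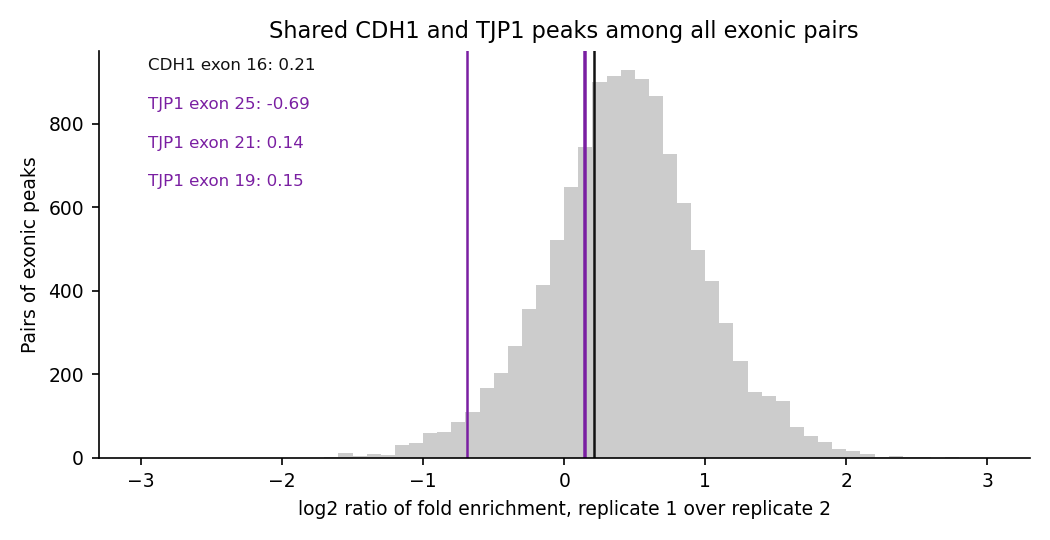
Number of exonic peak pairs by the log2 ratio of their fold enrichment, replicate 1 over replicate 2, with vertical lines for the 4 shared pairs of CDH1 (black) and TJP1 (purple). The TJP1 exon 25 pair is at −0.69, to the left of most of the 11741 pairs, and the other 3 are between 0.14 and 0.21, below the median of 0.43.

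Regarding transcript regions, 1 of 9 exonic summits in replicate 1 and 1 of 4 in replicate 2 was within 200 nt of the stop codon, both in CDH1. Over all summits on reference transcripts the portion was 24.7% and 27.3%. Of the 13 exonic summits, 12 were in CDS, counting the CDH1 stop codon peak, and 1 was in a 3′ UTR. For motifs, GGAC on the strand of the gene was present within 50 nt of 4 of 9 summits in replicate 1 and 3 of 4 in replicate 2. Over all exonic summits it was present at 49.7% and 51.5%, and in 30.1% of 703444 windows of 101 nt laid end to end along the reference transcripts. GGACT was within 50 nt of the summit in the CDH1 exon 16, TJP1 exon 19 and VIL1 exon 4 peaks. Over all exonic summits it was present at 17.7% and 18.9%, and in 9.03% of those windows. TGGAC was within 50 nt of the summit in the VIL1 exon 4 peak alone, at the GGAC in the intron. Over all exonic summits TGGAC was present at 18.9% and 20.1%. GAACT was within 50 nt of the summit in the CDH1 exon 16 and TJP1 exon 19 peaks, against 12.1% and 13.3% over all exonic summits. The reverse complement of GGAC, GTCC, was present at 5 of 9 summits in replicate 1 and 3 of 4 in replicate 2, against 31.5% and 29.6% over all exonic summits. It was within 50 nt of each of the 3 TJP1 summits in both lists.

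The genes without peaks were then described. KRT7 (chr12:52232520-52252186), KRT8 (chr12:52897187-52949954) and KRT18 (chr12:52948871-52952906) lie in the keratin cluster of chromosome 12, and KRT19 (chr17:41523617-41528308) and KRT20 (chr17:40875889-40885242) in that of chromosome 17. EPCAM, a surface adhesion molecule of epithelia, lies on chromosome 2 (47345158 to 47387601), and CDH17, the intestinal LI-cadherin, on chromosome 8 (94127162 to 94217303). The nearest peak to any of these gene bodies was 5446 bp away in replicate 1, next to CDH17, and 41347 bp away in replicate 2, also next to CDH17. For the 3 chromosome 12 keratins the nearest peaks were 40544 bp to 231733 bp away. No peak therefore lay just outside the annotated ends of these genes.

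The motif itself was not missing from these mRNAs. KRT7, KRT8 and KRT18 had 10 GGAC each, KRT19 had 8, EPCAM 9, CDH17 15 and KRT20 4. Per kb this was 7.08 for KRT18, 6.15 for KRT7, 5.82 for EPCAM, 5.76 for KRT19 and 5.61 for KRT8, above the median of 3.75 over 19702 reference transcripts. TJP1, with peaks in both replicates, had 1.81 per kb, the lowest of the 10 genes. KRT20 had 2.22 per kb, and CDH17, CDH1 and VIL1 were between 3.95 and 4.15 per kb. The extended GGACT was found 1 or 2 times in each keratin and EPCAM mRNA, and 5 or 6 times in CDH1, CDH17, VIL1 and TJP1.

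The transcripts also differed in length and exon structure. The keratins and EPCAM have mRNAs of 1390 nt (KRT19) to 1804 nt (KRT20), against 4811 nt for CDH1, 6500 nt for VIL1 and 7190 nt for TJP1. Their longest internal exons are 162 to 291 nt, a range that also holds those of VIL1 (203 nt), CDH1 and CDH17 (245 nt each), while that of TJP1 is 873 nt. KRT7, KRT8, KRT18, KRT19 and EPCAM have 8 to 10 motifs each. More than 100 nt from an exon junction were 1 in KRT7, 2 in KRT8, 3 in KRT18 and 4 each in KRT19 and EPCAM. In KRT20 it was 3 of 4. CDH17, with 3670 nt and no peak, had 2 such motifs among 15, while CDH1 had 5, TJP1 6 and VIL1 8. The median over all reference transcripts was 5. These counts were not divided by mRNA length, and the mRNAs of CDH1, TJP1 and VIL1 are longer than those of the keratins and EPCAM. These features were looked at after it was known which members had peaks. Over all genes, an exonic peak in both replicates was present for 15.9% of 6237 genes with an mRNA of up to 2000 nt and for 41.6% of 13465 genes with a longer one. Of the 6 members in the short class 0 had a peak, and of the 4 in the long class 2 had one in both replicates.

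KRT8 and KRT18 have many pseudogenes, copies of their mRNA pasted elsewhere in the genome, and peak summits lay within some of these. The annotation names 51 pseudogenes of KRT8, 68 of KRT18 and 5 of KRT19. A summit lay in 4 KRT8 pseudogenes in each replicate, 3 of them the same. It lay in 2 KRT18 pseudogenes in replicate 1 and 1 in replicate 2, and in 0 of the KRT19 pseudogenes. No share over all annotated pseudogenes is given beside these counts, so they cannot be called high or low. KRT8P46 (chr4:102728746-102730171, minus strand), a processed pseudogene within MANBA, had overlapping peaks, enriched 8.63-fold in replicate 1 and 6.77-fold in replicate 2. KRT8P3 (chr8:61578220-61579668) had 6.67 and 6.38, and lies within ASPH on the opposite strand. KRT18P31 (chr5:36885206-36886497), within NIPBL, had 7.19 and 5.83. These 6 values were all above the exonic medians of 5.30 and 4.82 and above each of the 13 exonic values of the members. They come from the copies with overlapping peaks whose summits lay in the copy in both lists. No comparison was made with other shared, intronic or pseudogene peaks, so the values cannot be called unusual. The other 6 pseudogene peaks had a lower fold enrichment. KRT8P12 had 5.59 in replicate 1 and 4.18 in replicate 2, at summits that were apart from each other. Its replicate 1 peak did overlap another replicate 2 peak, whose summit lay outside the annotated copy. KRT8P2 had 3.82 and 4.65 and KRT18P5 had 3.93, all in replicate 1, and KRT8P4 had 4.13 in replicate 2, so that 5 of these 6 were below the median of their list.

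The copies were then compared with the mRNAs of their parents. KRT8P3 was 97.1% identical to the KRT8 mRNA over 1449 nt, with a longest run without a difference of 129 nt. KRT8P46 was 90.1% identical to it, and KRT18P31 90.3% identical to KRT18, with longest runs of 51 and 60 nt. How reads that fit several places were treated is not given in the sources used here, and the part of shared reads in these peaks was not tested. KRT8P46 and KRT18P31 lie on the strand of their host genes, and KRT8P3 on the strand opposite to its host. KRT8P46 also overlaps another processed pseudogene, LRRC37A15P, on the same strand. The lists carry no strand, so the transcript behind the peaks of each of these copies is uncertain.

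**Figure D4:**
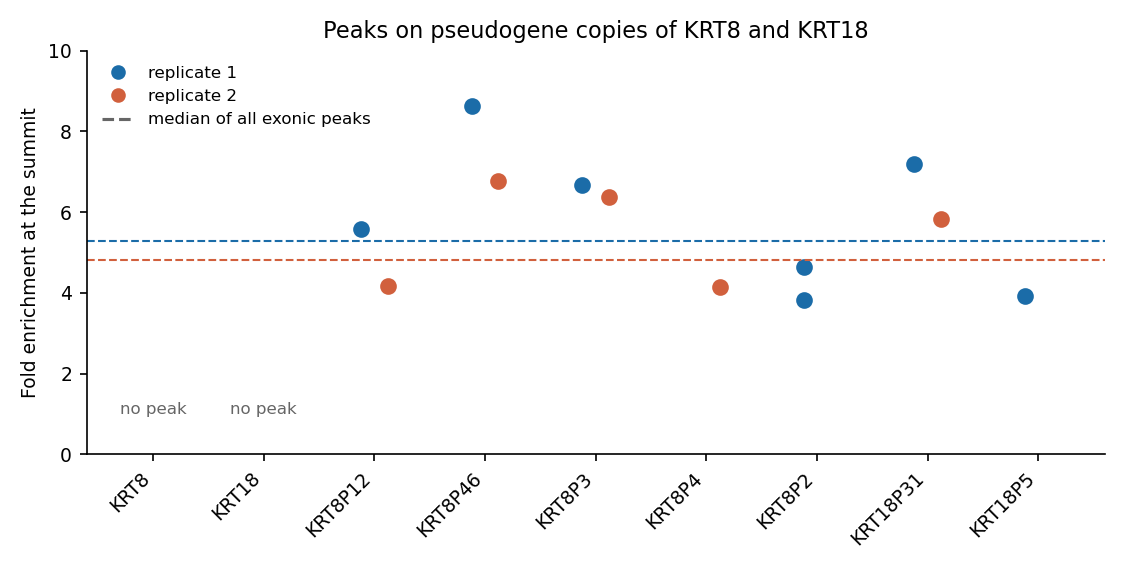
Fold enrichment at the summit of each peak on pseudogenes of KRT8 and KRT18, with replicate 1 in blue and replicate 2 in orange, beside the parent genes, which had no peak. Dashed lines mark the median of all exonic peaks in each list, and KRT8P46, KRT8P3 and KRT18P31 are above them in both replicates.

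Finally, lists of genes of the same families or cell structures were counted. Whether these genes are expressed in OE-19 cells could not be checked from the peak lists. Among the other keratins, 1 of 17 had an exonic peak in both replicates and 2 in either. This was KRT80, enriched 4.93-fold in replicate 1 and 3.58-fold in replicate 2, with an mRNA of 3873 nt, and KRT6B had a peak in replicate 1 alone. Partners of the members at cell junctions were counted next. Of 10 adherens junction partners, 6 had an exonic peak in both replicates, led by NECTIN1 (7.02 and 5.80), NECTIN2 (5.34 and 3.44) and AFDN (6.12 and 2.87), where parentheses give replicate 1 before replicate 2. Among the catenin genes, CTNND1 had an exonic peak in both replicates (3.13 and 2.80), and CTNNA1 and CTNNB1 in replicate 1 alone. JUP had none.

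Of 9 genes of desmosomes and keratin linkers, 6 had an exonic peak in both replicates. PKP2, a desmosomal plaque protein, had 9.06 and 11.3, PLEC, which links keratin to other filaments, had 8.61 and 6.003, and the desmosomal cadherin DSC2 had 5.92 and 5.88. Of 10 tight junction scaffolds and partners, 7 had a peak in both, led by PARD3 (10.2 and 8.77), OCLN (8.46 and 9.70) and MARVELD2 (9.99 and 4.36). Of 16 brush border genes, 5 had a peak in both, led by ANKS4B (16.8 and 8.02), ESPN (8.38 and 7.91) and CDHR5 (5.29 and 3.42). The median mRNA length was 2209 nt for the other keratins, 4103 nt for adherens junction partners, 6251 nt for desmosome genes, 5285 nt for tight junction genes and 3588 nt for brush border genes. These counts are descriptions beside the 33.4% of all protein-coding genes, and differences between the lists were not tested.

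**Figure D5:**
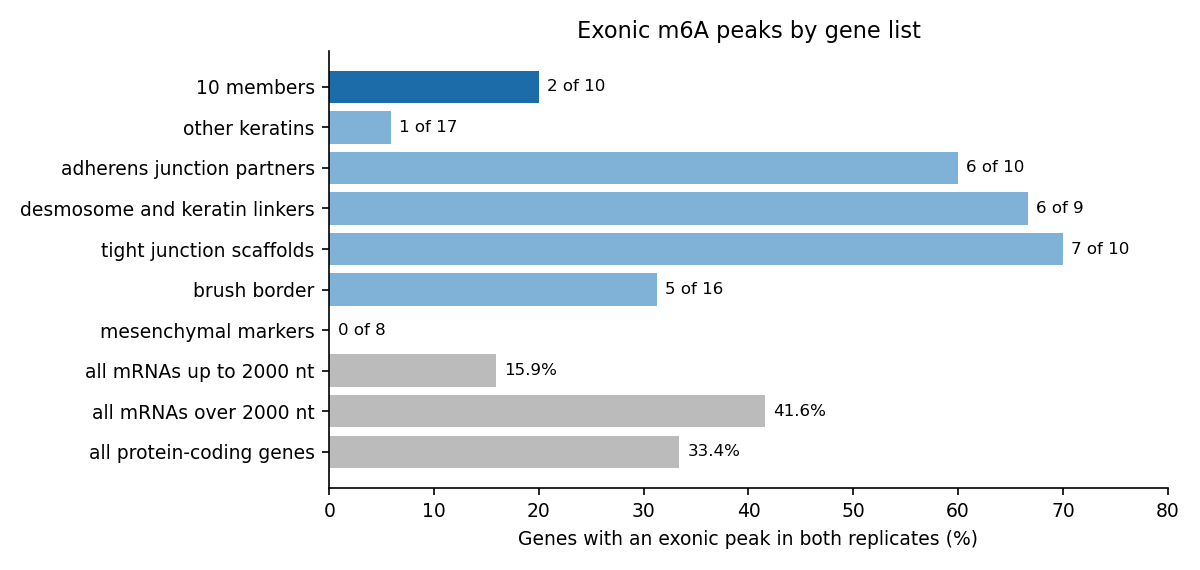
Percentage of genes with an exonic peak in both replicates, for the 10 members, 6 further gene lists (light blue, with counts) and all genes by mRNA length (grey). The members are at 2 of 10, the other keratins at 1 of 17 and mesenchymal markers at 0 of 8, while the lists of junction partners are between 60% and 70%, beside 33.4% of all protein-coding genes.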

How the data were processed

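According to the methods and the labels, RNA was fragmented, pulled down with an anti-m6A antibody and sequenced as paired-end reads. The labels also describe UV-fixed cells. The methods name TopHat2 as the aligner, whereas the submitters' processing notes list fastp, HISAT2 and MACS2; the build is hg38. The authors called peaks with MACS2, with 1 list per pull-down and default settings. They deposited each summit's fold enrichment, which is a ratio to the background that the caller estimates. The deposited −log10 of the q-value was used as given, and the deposited score was not used. Whether the input was the control is not stated.

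Summits (1-based) were assigned to exons of GENCODE version 44. Where exons overlapped, protein-coding genes took precedence. Regions were taken on the MANE Select transcript, or else the longest CDS. A total of 0 peaks ran past a chromosome end. Pseudogenes were taken by name and aligned locally to the parent mRNA. The members, lists and rules were chosen with earlier results of these data known, and mRNA length, junction distance and pseudogene identity were examined after the peaks of the members were seen. All members were named, with at most 3 genes per related list, ranked by the geometric mean of a shared peak's enrichment, and genes in counts of 5 or fewer. The catenin genes and JUP were added after their values were seen. Alternatives were stricter thresholds, peak midpoints, other overlap, stop codon and motif windows, the longest CDS, and each replicate left out. The scripts were tested on simulated data. Python 3.11.15, numpy 2.4.6, pysam 0.24.0 and matplotlib 3.10.9 served for the analysis.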

Additional observations from a re-analysis of the deposited data

Results flagged for a closer look

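A signal appeared outside the exons that the comparisons rest on. In replicate 2 alone, TJP1 had an intronic peak on chromosome 15 from 29950245 to 29950485, with a fold enrichment of 7.98 and a −log10 q of 9.49. Its fold enrichment was higher than that of every exonic peak of the 10 genes, whose highest value was 4.47. No annotated exon of any gene was at its summit, no GGAC was in it on the strand of TJP1, and no peak of replicate 1 overlapped it. Summits outside exons were common, as only 81.8% of all peaks in replicate 1 and 67.9% in replicate 2 were exonic. A peak of this kind is therefore not particular to TJP1. There was no control list to set it against, and its source was not tested.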

How the results depend on the processing

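Of 72 alternative values, 55 were within 1.5 times the value reported and 17 were not. A fold enrichment of 5 or more removed every exonic peak of the members, so that the members with a peak in replicate 1, in replicate 2 and in both, the exonic peaks, the shared peaks, the summits near the stop codon and the summits with GGAC all became 0. The fall shows that no exonic member peak reached this limit. A window of 400 nt moved the summits near the stop codon in replicate 1 from 1 to 3, the added ones being CDH1 peaks. Leaving out each replicate in turn gave 4 to 9 exonic peaks in place of 13 in both lists together, 1 in each case in place of 2 summits near the stop codon, 3 to 4 in place of 7 summits with GGAC, and 2 to 3 members with a peak. By construction a sum over both lists falls when a list is left out. A q of 0.01 or less or of 1e-05 or less and peak midpoints left the same members with a peak, namely CDH1, TJP1 and VIL1 in replicate 1 and CDH1 and TJP1 in replicate 2. No paired analysis was possible because the input samples, which share replicate numbers with the pull-downs, have no values in the lists analysed here. The lists give no depth, so a missing peak is not evidence of missing m6A.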

Other observations

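Among 8 mesenchymal markers, 0 had an exonic peak in both replicates, beside 33.4% of all protein-coding genes. With genes this few, the difference was not tested. COL1A1 had an exonic peak in replicate 1 alone and FN1 in replicate 2 alone, while VIM, CDH2, ZEB1, ZEB2, TWIST1 and SNAI2 had none. These are counts of peaks and not expression levels.

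The portion of genes with an exonic peak in both replicates was higher with a larger number of GGAC motifs that lay more than 100 nt from an exon junction. It was 6.46% of 1797 genes with 0 such motifs, 13.4% of 3758 with 1 to 2, 27.7% of 4618 with 3 to 5, 42.9% of 4598 with 6 to 10 and 55.1% of 4931 with 11 or more. These classes also differ in mRNA length, and the parts of length and of motif position were not separated. KRT7, KRT8 and CDH17 fell into the class of 1 to 2, KRT18, KRT19, KRT20, EPCAM and CDH1 into that of 3 to 5, and TJP1 and VIL1 into that of 6 to 10.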
